A study of Mus musculus with 18 samples.

Results

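The 34 interferon-stimulated genes (ISGs) examined here are a named list of well-known targets of interferon signalling, matched by gene identifier to the 55401 gene rows of the mRNA count files, and all 34 were found. The cells were NIH/3T3, an established line of mouse embryonic fibroblasts, either wild-type (WT) or knocked out for XPO4 (KO), the gene of the nuclear export receptor exportin 4. The KO line was made with CRISPR/Cas9, carries a deletion in exon 1 of XPO4 that shifts the reading frame, and is a single line, and no interferon or other agent was named for either genotype. Steady-state mRNA was sequenced from 3 KO and 3 WT libraries, and circular RNA (circRNA) after RNase R digestion from 12 further libraries, 2 for each genotype in whole cells, cytoplasm and nucleus. Nothing states that the 3 libraries of a genotype came from separate cultures, so p-values measure the spread between these libraries, and what separates the 2 lines cannot be told apart from the loss of XPO4.

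Type I interferons bind the receptor IFNAR1/IFNAR2, and the kinases JAK1 and TYK2 then activate a transcription factor complex that holds STAT2 and IRF9 and binds the interferon-stimulated response element (ISRE) in target promoters. Interferon gamma acts at the gamma-activated site (GAS) and through IRF1. Fibroblasts keep a low, tonic level of many ISGs without added interferon, and the encoded proteins sense viral nucleic acid, block viral translation, modify proteins with ISG15, attract lymphocytes and cut peptides for MHC class I.

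The labels of the mRNA libraries conflicted. In all 6 count files the column heading and the recorded command name an alignment of the other genotype. WT and KO below follow the sample titles, and every mRNA direction turns round if the headings are right. The headings concern the mRNA libraries only, so the circRNA directions would stay as given. The counts did not settle it. Xpo4 itself had 657, 614 and 685 fragments in WT and 712, 504 and 687 in KO (log2 fold change 0.18 ± 0.11 SE, edgeR adjusted p = 0.193), and a total over the gene does not check a deletion within 1 exon. The lines also differed outside the ISGs. The Y-linked genes Kdm5d, Eif2s3y, Uty and Ddx3y, named after their values were seen, had 0 fragments in the 3 WT libraries and 100 to 594 in each KO library. These counts bear on the conflict of labels. Whether they come from swapped titles or from unrelated lines was not tested. Another gene placed on chromosome Y, Gm47283, was found in both, at 1608, 1592 and 1885 fragments in WT and 1073, 1641 and 905 in KO. The median log2 fold change of the 689 tested genes of chromosome 10 was 0.45, against -0.0029 over all genes. Libraries held 16974062 to 22057323 counted fragments. The 10 fibroblast markers summed to 21070 to 24420 CPM (counts scaled to 1000000 counted fragments) in every library, while epithelial markers summed to at most 0.452 CPM with Epcam, Krt18 and Cldn4 at 0. The 10 leukocyte markers summed to 12.0 to 14.6 CPM in WT and 7.55 to 8.05 in KO, with Cd3e at 0. The extraction protocol in the labels speaks of peripheral blood, although every sample is labelled NIH/3T3. The 6 erythroid markers summed to 0.257 to 0.838 CPM, with Hba-a2, Hbb-bs and Hbb-bt at 0 and Hba-a1 at 0 in WT and 8, 7 and 6 fragments in KO.

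Most ISGs that could be tested were lower in KO, and a smaller group was higher. Of the 34 members, 24 passed the low-count filter. Of these 24, 14 were lower in KO (edgeR quasi-likelihood test, Benjamini-Hochberg adjusted p under 0.05 over 14688 genes), 6 were higher and 4 did not pass the threshold. In percent, 58.3 of the tested members were lower, where 23.6% of all tested genes were lower, and 25.0 were higher, where 25.1% of all tested genes were higher. The list was chosen with earlier results of these data known, and the part of that choice in this contrast was not tested. In either direction, 48.7% of all tested genes were called, so a call on its own was common in this comparison. The median log2 fold change of the 24 was -0.31, with a range from -2.48 (Oasl2) to 3.23 (Ifih1). Those are also the 2 members with libraries at the filter level of 0.534 CPM in 1 genotype alone, Oasl2 in WT and Ifih1 in KO. For them a large difference was a condition of being tested. Without them, 13 of 22 members were lower and 5 higher. The 13 still include Gbp3 and Ifi44, which reached the filter level in every WT library but not in every KO library. In bulk RNA, fewer cells making a transcript and less transcript per cell cannot be told apart. Leaving out WT replicate 1 or KO replicate 1 cut the higher group from 6 to 3, with Ifih1, Ifit2 and Bst2 left in each case, while the lower group stayed between 12 and 15 under every alternative run.

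**Figure D1:**
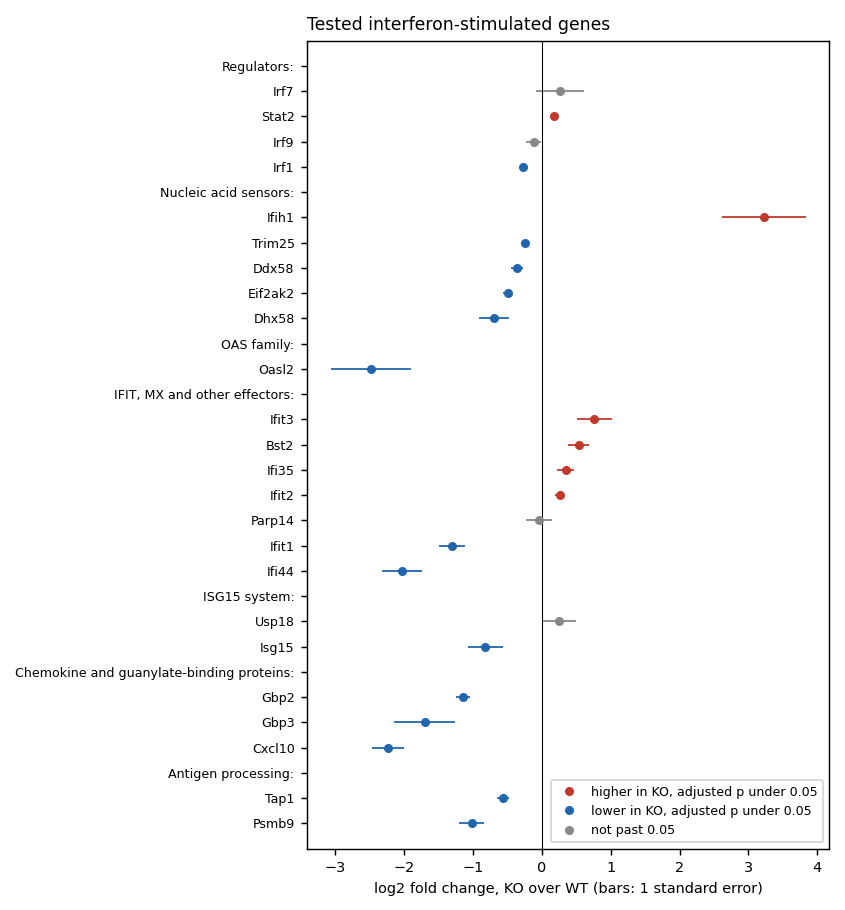
Log2 fold change (KO over WT) on the x axis for the 24 tested ISGs, grouped by role, with bars of 1 standard error from edgeR. The 14 blue genes are lower and the 6 red genes higher in KO at an adjusted p under 0.05, from Oasl2 at -2.48 to Ifih1 at 3.23, and the 4 grey genes did not pass.

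The levels covered a wide range. In FPKM, the fragment count scaled by library size and by exonic length in kilobases, 17 of the 34 members reached 1 in at least 1 genotype. The most abundant per length in WT were Eif2ak2 (15.5 ± 0.72 SD, n = 3), Trim25 (15.1 ± 0.24) and Ifit2 (14.1 ± 0.55). In KO the order at the top was Ifit2 (16.9 ± 1.3 FPKM), Bst2 (13.4 ± 1.3) and Trim25 (12.7 ± 0.73), and Bst2 and Trim25 did not differ beyond their spread. At the other end, Zbp1, Oas2, Oas3 and Rsad2 had at most 2 fragments in any library. Summed over the 34 members, the level was 439.9 to 445.6 CPM in WT and 369.3 to 390.4 CPM in KO, so the ranges did not overlap. Abundant genes weigh most in this sum. Mean CPM in WT and KO was 86.6 and 73.0 for Trim25 and 79.4 and 56.3 for Eif2ak2. Ifit2 went the other way, at 55.4 and 66.4 CPM.

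**Figure D2:**
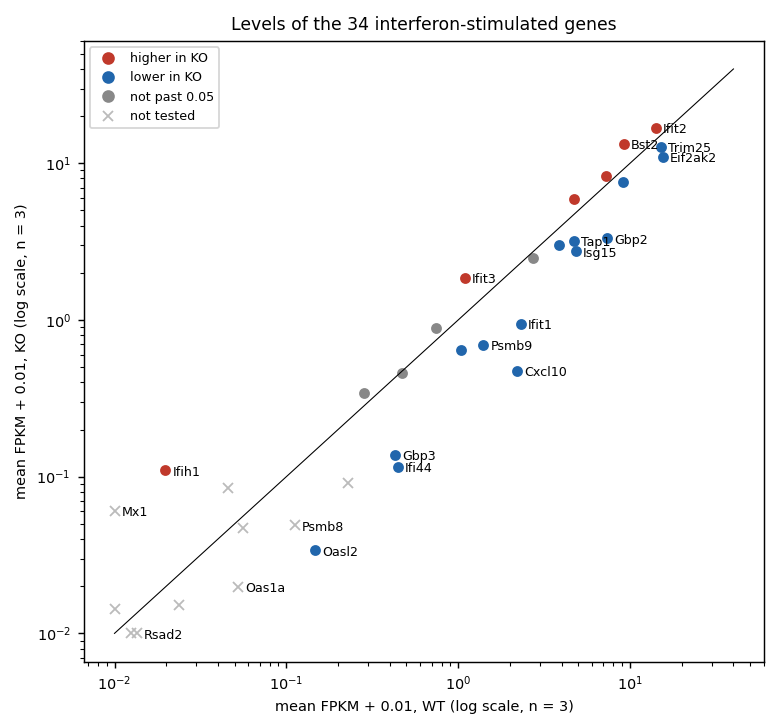
Mean FPKM plus 0.01 of each of the 34 ISGs in WT (x axis) and KO (y axis), both on log scales, n = 3 libraries each, with the diagonal marking equal levels. Crosses are the 10 genes not tested, which all lie below 1 FPKM, and Cxcl10, Gbp2, Ifit1, Gbp3 and Ifi44 lie well below the diagonal while Ifih1 lies well above it.

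Among the regulators, changes were small. Stat2, which carries the transactivation domain of the ISRE-binding complex, had 43.5, 40.9 and 45.1 CPM in WT and 49.8, 47.5 and 49.3 in KO. Every KO library lay above every WT library, by a log2 fold change of 0.18 ± 0.06 SE (adjusted p = 0.0341). Stat2 lies on chromosome 10, where the median tested gene was higher by 0.45, and its call was lost under 7 of 13 alternatives. Irf1, a transcription factor induced by interferon gamma, had 36.4, 35.9 and 36.6 CPM in WT and 31.8, 30.0 and 28.5 in KO (log2 fold change -0.27 ± 0.07, adjusted p = 0.0057). The groups did not overlap, and 20.0% of the exonic bases of Irf1 are shared with an antisense gene, whose reads cannot be told apart in unstranded counting. Irf9, the DNA-binding subunit of the complex, and Irf7, the amplifier of interferon alpha genes, overlapped between genotypes, with log2 fold changes of -0.12 ± 0.11 (adjusted p = 0.374) and 0.27 ± 0.35 (adjusted p = 0.548).

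Of the 5 tested genes listed as cytosolic sensors or their partners, 4 were lower and Ifih1 was called higher. Of all tested genes, 23.6% were lower and 25.1% higher. Ddx58, which encodes RIG-I, the sensor of short RNAs with a 5′ triphosphate, had 522, 501 and 649 fragments in WT and 393, 344 and 382 in KO (log2 fold change -0.36 ± 0.09, adjusted p = 0.00445). Its relative Ifih1, which encodes MDA5, the sensor of long double-stranded RNA, had 0, 2 and 3 fragments in WT and 13, 18 and 12 in KO. The groups did not overlap for either gene. Ifih1 passed the filter through KO alone, the genotype in which it was high, with a log2 fold change of 3.23 ± 0.61 (adjusted p = 6.69e-04) from a level of 0.00977 ± 0.0087 FPKM to one of 0.0998 ± 0.021 FPKM, far below the 3.02 ± 0.24 FPKM of Ddx58 in the same cells. Dhx58, which encodes LGP2, a regulator of both sensors, had 72, 71 and 62 fragments in WT and 39, 41 and 29 in KO (log2 fold change -0.70 ± 0.22, adjusted p = 0.0188). Leaving out WT replicate 1, WT replicate 2 or KO replicate 3 lost the call of Dhx58, with the log2 fold change between -0.64 and -0.57.

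Eif2ak2, which encodes PKR, the kinase that stops translation when it binds double-stranded RNA, was with Trim25 the most abundant of this group per length in WT. It had 81.8, 81.3 and 75.2 CPM in WT and 56.5, 54.3 and 58.0 in KO, a 1.41-fold lower level (log2 fold change -0.50 ± 0.06, adjusted p = 1.64e-05). Trim25, the ubiquitin ligase that acts with RIG-I, had 88.2, 86.2 and 85.5 CPM in WT and 74.2, 68.3 and 76.4 in KO (log2 fold change -0.25 ± 0.06, adjusted p = 0.00378). Neither gene's groups overlapped. Zbp1, a sensor of Z-form nucleic acid, had 2, 0 and 1 fragments in WT and 1, 0 and 0 in KO and was not tested.

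The 5 listed genes of the OAS family, enzymes and enzyme-like proteins that respond to double-stranded RNA, had few fragments. Oas1a, Oas2 and Oas3 had at most 3 fragments in any library, and Oasl1 had 1, 6 and 0 in WT and 0, 1 and 4 in KO, so none of the 4 was tested. The Oas1 genes are close copies, and 40.9% of the 100-base stretches of Oas1a also occur in Oas1g, so reads common to the pair are uncertain. Of the 5, only Oasl2 was tested, an OAS-like protein with a ubiquitin-like end, at 15, 17 and 22 fragments in WT and 0, 5 and 3 in KO. It passed the filter through WT alone, the genotype in which it was high (log2 fold change -2.48 ± 0.58, adjusted p = 0.00318), and both levels were low, at 0.137 ± 0.019 FPKM in WT and 0.0239 ± 0.022 FPKM in KO. Oas1b, a neighbour of Oas1a outside the list of 34, had 32, 24 and 21 fragments in WT and 11, 8 and 15 in KO and was also lower (log2 fold change -0.96 ± 0.36, adjusted p = 0.0433). It reached the filter level of 0.534 CPM in every WT library but not in every KO library.

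The IFIT genes, whose proteins bind foreign RNA ends and block its translation, lie side by side on chromosome 19 between 34550694 and 34650009 (mm10) and diverged. Ifit1 had 5.88, 7.03 and 5.51 CPM in WT and 3.02, 2.31 and 2.12 in KO, a 2.46-fold lower level (log2 fold change -1.30 ± 0.19, adjusted p = 8.84e-05). Ifit3 had 1.31, 2.05 and 2.32 CPM in WT and 3.58, 3.49 and 2.59 in KO, a 1.69-fold higher level (log2 fold change 0.76 ± 0.25, adjusted p = 0.0239). In each gene the groups did not overlap, in opposite orders, and the call of Ifit3 was lost without WT replicate 1 (0.55) or KO replicate 1 (0.68). Ifit2, the most abundant of the family, had 55.8, 57.3 and 53.1 CPM in WT and 67.7, 60.8 and 70.6 in KO (log2 fold change 0.26 ± 0.07, adjusted p = 0.00627). Of the 7 annotated genes in this stretch 6 were tested, 4 were higher and 1, Ifit1, was lower, where 48.7% of all tested genes were called in either direction. Of the 4, Ifit1bl1 reached the filter level of 0.534 CPM in every KO library but not in every WT library. The copy Ifit3b, which shares 31.7% of the 100-base stretches of Ifit3, had 13, 18 and 18 fragments in WT and 51, 46 and 52 in KO, so it was also higher, and reads common to the pair are uncertain.

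The sequences before Ifit1 and Ifit3 are shown because both hold ISRE-like letters while the genes went opposite ways. They are the 250 bases before the RefSeq start (GRCm38.p6), 5′ to 3′ along the gene, with the core GAAANNGAA or its reverse complement TTCNNTTTC in capitals.
Ifit1, chr19:34640639-34640888, plus strand: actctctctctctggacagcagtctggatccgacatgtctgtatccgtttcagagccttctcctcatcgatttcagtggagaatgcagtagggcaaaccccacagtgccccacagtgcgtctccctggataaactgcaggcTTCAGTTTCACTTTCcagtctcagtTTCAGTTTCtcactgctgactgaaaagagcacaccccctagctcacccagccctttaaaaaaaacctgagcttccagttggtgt
Ifit3, chr19:34583279-34583528, plus strand: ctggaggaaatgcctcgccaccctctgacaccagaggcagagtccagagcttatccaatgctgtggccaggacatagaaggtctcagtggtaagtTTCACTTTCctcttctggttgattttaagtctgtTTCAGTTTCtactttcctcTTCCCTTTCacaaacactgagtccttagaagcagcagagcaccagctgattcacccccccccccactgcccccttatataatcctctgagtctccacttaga
Each window held 3 matches, the first at position -109 from the start in Ifit1 and at -155 in Ifit3, and in Ifit1 neighbouring matches share bases. These are matches of letters, not measured sites.

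The other effectors also split. Bst2, which encodes tetherin, the membrane protein that holds budding virus at the cell surface, had 7.23, 7.24 and 10.4 CPM in WT and 11.7, 13.4 and 11.0 in KO (log2 fold change 0.53 ± 0.15, adjusted p = 0.00978). Its highest WT library came close to the lowest KO library, and the call was lost without WT replicate 2 (0.44). Ifi35, a partner of NMI, had 7.38, 8.93 and 7.97 CPM in WT and 11.2, 9.12 and 10.5 in KO (log2 fold change 0.34 ± 0.13, adjusted p = 0.0382), with the nearest libraries almost touching. The call of Ifi35 was lost under 7 of 13 alternatives, and 16.8% of its exonic bases are shared with an antisense gene.

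Ifi44, an ISG of the IFI44 family, showed the clearest fall among the effectors, from 50, 61 and 52 fragments in WT to 13, 9 and 12 in KO. It reached the filter level of 0.534 CPM in every WT library but not in every KO library. The groups did not overlap (log2 fold change -2.03 ± 0.29, adjusted p = 6.36e-05). Parp14, a mono-ADP-ribosyltransferase, had 102, 67 and 96 fragments in WT and 71, 82 and 68 in KO, and its groups overlapped (log2 fold change -0.04 ± 0.19, adjusted p = 0.871). The MX GTPases and Rsad2, which encodes viperin, were under the low-count filter. Mx1 had 0 fragments in all 3 WT libraries, which allows a level of up to 0.0488 CPM for counting error alone, and 4, 0 and 6 in KO. It was called higher once the filter was dropped (adjusted p = 0.0264). Mx2 had 2 to 3 fragments in WT and 2 to 8 in KO, and Rsad2 had 1 fragment in all.

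**Figure D3:**
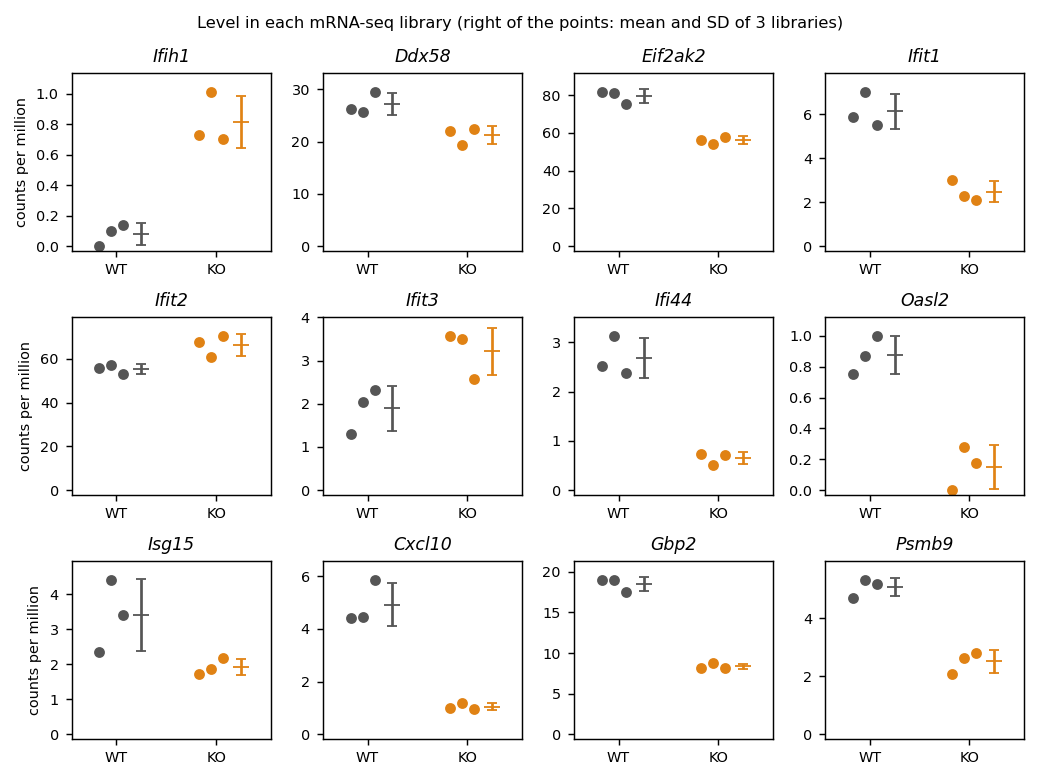
CPM on the y axis (starting near 0, a separate scale per gene) for 12 ISGs in each of the 3 WT and 3 KO libraries, with the mean and SD of each genotype to the right of its points. Ddx58, Eif2ak2, Ifit1, Ifi44, Oasl2, Isg15, Cxcl10, Gbp2 and Psmb9 are lower and Ifih1, Ifit2 and Ifit3 higher in KO, with no overlap between genotypes in any panel. All 12 were picked from the called members, so the lack of overlap follows from that choice. Members with overlapping groups, such as Parp14 and Usp18, are not shown.

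The ISG15 system couples a ubiquitin-like protein to targets, and USP18 removes it again. Isg15 had 2.36, 4.41 and 3.41 CPM in WT and 1.73, 1.86 and 2.17 in KO, a 1.77-fold lower level (log2 fold change -0.82 ± 0.26, adjusted p = 0.0176). The WT libraries were spread widely, their lowest lay just above the highest KO library, and the call was lost without WT replicate 2 (-0.59) or KO replicate 1 (-0.74). Usp18 had 37, 36 and 53 fragments in WT and 50, 47 and 32 in KO, with overlapping groups (log2 fold change 0.26 ± 0.24, adjusted p = 0.404).

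The chemokine Cxcl10 and the guanylate-binding proteins (GBPs), large GTPases that coat intracellular pathogens, fell in 3 of the 3 genes tested. Of all tested genes, 23.6% were lower. Cxcl10, the ligand of CXCR3 on T cells, had 4.42, 4.47 and 5.87 CPM in WT and 1.01, 1.18 and 0.94 in KO, a 4.70-fold lower level (log2 fold change -2.23 ± 0.23, adjusted p = 3.91e-06). Gbp2 had 19.0, 18.9 and 17.6 CPM in WT and 8.16, 8.73 and 8.17 in KO, a 2.22-fold lower level (log2 fold change -1.15 ± 0.10, adjusted p = 6.92e-07). Both pairs of groups stood far apart compared with their spread, and Gbp2 had the smallest adjusted p of the 24 tested members. Gbp3 had 26, 31 and 27 fragments in WT and 13, 2 and 7 in KO (log2 fold change -1.70 ± 0.45, adjusted p = 0.00649). Gbp3 reached the filter level of 0.534 CPM in every WT library but not in every KO library. Gbp7 had 28, 35 and 10 fragments in WT and 9, 9 and 6 in KO and was under the filter, though called lower without it (adjusted p = 0.00492), and 10.0% of its 100-base stretches also occur elsewhere. These GBP genes lie on chromosome 3, where the median tested gene was higher in KO by 0.16.

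The upstream windows of Cxcl10, Gbp2 and Isg15, which fell, are shown beside that of Ifih1, which rose, with the same marking, build and orientation.
Cxcl10, chr5:92348890-92349139, minus strand: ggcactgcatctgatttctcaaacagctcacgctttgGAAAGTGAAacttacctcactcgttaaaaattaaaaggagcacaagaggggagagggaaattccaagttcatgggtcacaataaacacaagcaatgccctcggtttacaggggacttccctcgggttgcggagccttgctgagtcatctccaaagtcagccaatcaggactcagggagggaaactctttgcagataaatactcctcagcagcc
Gbp2, chr3:142620413-142620662, plus strand: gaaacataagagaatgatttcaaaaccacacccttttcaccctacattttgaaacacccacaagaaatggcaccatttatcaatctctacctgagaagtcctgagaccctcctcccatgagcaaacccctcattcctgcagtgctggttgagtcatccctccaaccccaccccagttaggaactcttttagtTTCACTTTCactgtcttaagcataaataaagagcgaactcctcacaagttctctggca
Isg15, chr4:156200819-156201068, minus strand: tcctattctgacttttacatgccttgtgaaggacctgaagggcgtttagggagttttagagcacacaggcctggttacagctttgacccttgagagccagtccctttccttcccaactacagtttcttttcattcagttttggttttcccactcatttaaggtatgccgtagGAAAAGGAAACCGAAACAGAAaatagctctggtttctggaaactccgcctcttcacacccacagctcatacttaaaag
Ifih1, chr2:62646256-62646505, minus strand: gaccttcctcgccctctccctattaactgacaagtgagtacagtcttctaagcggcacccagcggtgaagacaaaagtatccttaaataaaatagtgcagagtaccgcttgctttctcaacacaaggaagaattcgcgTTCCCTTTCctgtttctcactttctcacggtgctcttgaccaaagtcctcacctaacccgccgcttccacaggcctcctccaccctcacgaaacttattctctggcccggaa
Cxcl10, Gbp2 and Ifih1 each held 1 match, at positions -213, -58 and -112 from the start, and Isg15 held 3 that overlap, the first at -78. Promoters were found in the RefSeq table for 27 of the 34 members, 31 windows in all, and 14 of the 31 (45.2%) held GAAANNGAA on either strand, against 7.13% of 32851 windows of all genes. By direction, 6 of the 15 windows of lower members and 4 of the 7 windows of higher members held it, so the letters occurred before genes of both directions. The GAS letters TTCNNNGAA occurred in 7 of the 31 windows (22.6%) and in 7.02% of all.

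Both tested members of the antigen processing group, out of 3 listed, were lower, where 23.6% of all tested genes were lower. Psmb9, a catalytic subunit of the immunoproteasome, had 4.72, 5.34 and 5.19 CPM in WT and 2.07, 2.65 and 2.82 in KO, a 2.02-fold lower level (log2 fold change -1.02 ± 0.18, adjusted p = 5.07e-04). Tap1, a subunit of the transporter that carries peptides into the endoplasmic reticulum, had 24.3, 26.9 and 26.3 CPM in WT and 18.6, 18.4 and 15.6 in KO (log2 fold change -0.56 ± 0.09, adjusted p = 1.97e-04). Neither gene's groups overlapped. The pair is transcribed outwards from one short region of chromosome 17 and shares 212 exonic bases. Psmb8, another immunoproteasome subunit beside them, had 4, 3 and 15 fragments in WT and 0, 7 and 0 in KO and was not tested.

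The leukocyte marker sum was also lower in KO. Of its 10 genes 4 were tested, 2 lower and 1 higher, where 23.6% and 25.1% of all tested genes were called. Ptprc (108, 103 and 105 fragments in WT, 32, 26 and 21 in KO) and Cd68 were called lower. Lyz2, from 1 to 3 fragments in WT to 10 to 13 in KO, was called higher after passing the filter through KO alone. The groups of Csf1r overlapped, at 39, 37 and 46 fragments in WT and 37, 27 and 38 in KO (log2 fold change -0.04 ± 0.24, edgeR adjusted p = 0.916). Adgre1, Itgam, Tyrobp, Cd3e and Laptm5 had at most 2 fragments in any library. The part of these genes in the fall of the ISGs was not tested.

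The rest of the interferon pathway was read from 6 lists of 89 further genes, of which 72 were tested, 20 higher (27.8%) and 26 lower (36.1%), where 25.1% and 23.6% of all tested genes were called, so the higher share was near that of all genes. The same shares of all genes stand behind each list below. Nlrc5, called higher, and Ccl5, called lower, each passed the filter in 1 genotype alone. For these genes a large difference was a condition of being tested. No ligand of the 10 listed was tested, and Ifnb1, the interferon beta gene, had 1 fragment in 1 KO library and 0 in the other 5. The receptor and JAK-STAT list had 14 tested genes, 2 higher (14.3%) and 8 lower (57.1%). Ifnar1 went from 13.5 ± 0.47 to 9.76 ± 0.60 FPKM (log2 fold change -0.47) and Ifnar2, its partner subunit, from 11.3 ± 0.44 to 6.74 ± 0.66 (log2 fold change -0.74), each lower in every KO library. Ifngr1, the ligand-binding chain of the interferon gamma receptor, was higher (log2 fold change 0.83) and also lies on chromosome 10. Socs3, an inhibitor of JAK signalling, had 125, 119 and 122 CPM in WT and 47.8, 47.2 and 45.9 in KO (log2 fold change -1.38 ± 0.06, adjusted p = 5.12e-10).

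Of the sensing adaptors and kinases 4 of 13 were higher and 4 lower, 30.8% each, which is near the shares of all genes. Mavs, the mitochondrial adaptor of RIG-I and MDA5, was higher (0.49 on the log2 scale), as were Ticam1, the adaptor of TLR3 (0.47), and Irf3 (0.24), the factor that starts interferon beta transcription, while Traf3, a ubiquitin ligase of the same route, was lower (-0.53). In the nucleic acid editing and clearance list 1 of 9 was higher (11.1%) and 2 lower (22.2%). Adar, the enzyme that edits adenosines in double-stranded RNA, was lower (-0.48), Rnaseh2a, the catalytic subunit of RNase H2, was lower (-0.27), and Samhd1, a dNTP hydrolase, was higher (0.21).

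In the MHC class I list 7 of 12 were higher (58.3%) and 2 lower (16.7%), against 25.1% and 23.6% of all genes. B2m, the light chain, had 225, 245 and 246 CPM in WT and 326, 385 and 340 in KO (log2 fold change 0.55 ± 0.07, adjusted p = 1.76e-05). The heavy chains H2-K1 and H2-D1 were higher by 0.49 and 0.55 on the log2 scale, and Calr, a chaperone of the loading complex, by 0.87. Nlrc5, the transactivator of MHC class I genes, had 0, 3 and 7 fragments in WT and 64, 62 and 59 in KO (log2 fold change 4.38 ± 0.45, adjusted p = 3.48e-06), and it passed the filter through KO alone. Erap1, which trims peptides after their transport, was lower (-0.97), as was Psmb10, an immunoproteasome subunit like Psmb9 that was named after its values were seen (-0.41). Among 24 tested further interferon-induced genes, 6 were higher (25.0%, near the 25.1% of all genes) and 10 lower (41.7%). Of the lower genes, Ccl5 passed the filter through WT alone and is named for that reason. It had 45, 54 and 43 fragments in WT and 1, 0 and 3 in KO. Ifitm1, a membrane protein that blocks viral entry, had 113, 135 and 167 fragments in WT and 13, 19 and 8 in KO (log2 fold change -3.14 ± 0.26). Dtx3l, a ubiquitin ligase, was lower (-1.02), and Trim30a was higher (1.56).

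**Figure D4:**
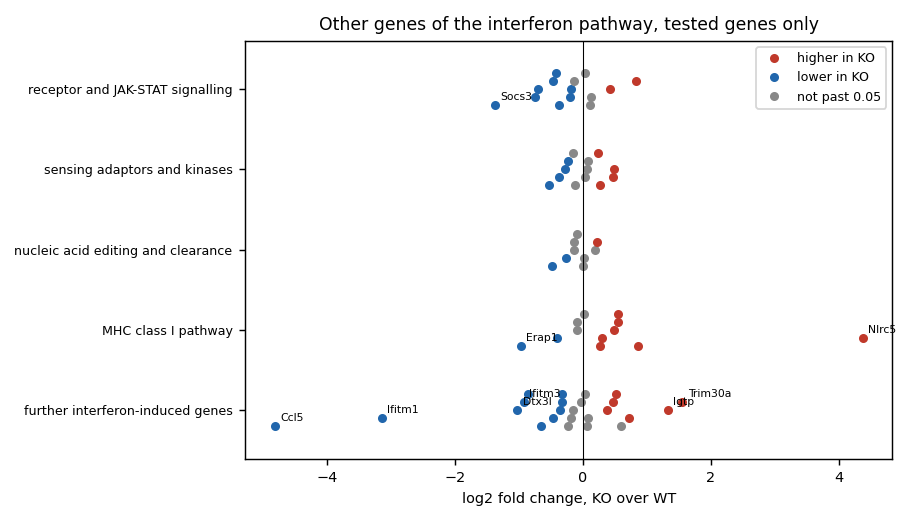
Log2 fold change (KO over WT) on the x axis for the 72 tested genes of the interferon pathway that are not among the 34 ISGs, 1 row per list, with points spread vertically for legibility only. Red points are higher, blue points lower and grey points not past an adjusted p of 0.05, with 7 red points of 12 in the MHC class I row and 8 blue points of 14 in the receptor row.

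The circRNA libraries gave another readout of the same loci, and they listed 4 circles at 3 of the 34 members, with both ends on annotated exon edges in all 4. Stat2 gave 2 circles with a common end, chr10:128276486-128278817 and chr10:128277644-128278817 (mm10). Together they had 16 and 13 junction reads in the WT cytoplasmic libraries and 3 and 4 in the KO ones. Dhx58 gave 1 circle, chr11:100701224-100703695, with 10 and 8 reads in WT cytoplasm and 1 and 1 in KO cytoplasm. For both genes the WT cytoplasmic libraries were the higher, and these held 77818 and 81941 junction reads in all against 50629 and 63335 in KO. Irf1 gave 1 circle, chr11:53774346-53776053, with 1 and 1 reads in WT whole cells and 7 and 3 in KO whole cells. None of the 4 was listed in a nuclear library, where totals were 2189 to 4383 junction reads. The circles of Stat2 and Dhx58 had 0 reads in every whole-cell library, where totals were 50341 to 58165. The Irf1 circle had 0 reads in every cytoplasmic library. With 2 libraries per group and so few reads, these values are given without a test.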

How the data were processed

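The authors aligned paired-end mRNA reads with HISAT2 to mm10 and counted fragments per gene with featureCounts 2.0.0; per the file headers the deposited values are raw counts over exons of GENCODE genes, without a strand option or an option for multiply mapped reads. The authors called circles with find_circ, and the deposited circRNA files hold counts of junction reads for each circle. From the counts, genes were tested with edgeR 4.0.16 (quasi-likelihood, TMM, filterByExpr) on 14688 of 55401 genes by genotype from the titles. P-values were adjusted over all tested genes at 0.05, and standard errors are the log2 fold change divided by the root of F. CPM and FPKM used effective library sizes and the exonic length in the files. Alternatives used DESeq2 1.42.0, limma 3.58.1 (voom), other scaling, no filter, a replicate block and each library left out. The edgeR fit was tested on simulated data. Named were all 34 members, Xpo4, a fixed set of pathway genes, and in each pathway list the 3 largest changes past the threshold with groups apart and, in whichever genotype was higher, 50 or more fragments on average. The members and lists were chosen with earlier results of these data known. Some listed genes are not reported here. Symbols came from the reference by identifier without version (55141 of 55401 rows). Intervals and limits cover counting error only.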

Additional observations from a re-analysis of the deposited data

How the results depend on the processing

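Of the tested ISGs, 14 were lower and 6 higher in KO as reported. The lower count was 14 with RLE, upper-quartile or total-count scaling, DESeq2 and limma voom, and 15 without the low-count filter. The higher count was 6 with RLE, total-count scaling, limma voom or no filter, and 4 with upper-quartile scaling or DESeq2. Leaving out each library in turn gave 3 to 6 higher and 12 to 15 lower members. The 3 came without WT replicate 1 and without KO replicate 1. No called member changed direction under any of the 13 alternatives. With the replicate number as a block, 5 members were higher and 14 lower. The numbers did not pair the libraries, since deviations of same-numbered libraries correlated at 0.0615, 0.0359 and -0.0889, and not every library correlated best with its own number. Calls were lost for Stat2 and Ifi35 (7 alternatives each), Dhx58 (3), Ifit3 and Isg15 (2 each) and Bst2 (1). The cause was not tested. The median log2 fold change of all genes was -0.0029 as reported. It was -0.0053 with RLE, -0.028 with upper-quartile and -0.0017 with total-count scaling. As TPM, 22 members instead of 17 reached 1. Without the filter, 2 of the 10 members under it were called, Gbp7 lower and Mx1 higher, and Stat2 lost its call, so the 6 higher members there are not the reported 6. The other 8 had at most 15 fragments in a library and did not pass.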
